A study of Mus musculus with 3 samples.

Results

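The comparison described here set plasma cells of the spleen that carried an IL-10 reporter against B cells of the same organ. All cells came, freshly isolated, from IL-10 Venus mice, a strain whose Il10-expressing cells are made visible by the fluorescent protein Venus. B220+ spleen cells, named as the control in the labels, and Venus+ CD138hi spleen cells were sorted by flow cytometry, and RNA of each was hybridized to 1 single-colour array. The members of the comparison were these 2 of the 3 arrays in the series and all 16631 of 23473 probes that carried a gene symbol, standing for 16390 genes. The third array held Venus+ CD138hi cells of the bone marrow from the same strain, and its signals are given beside some results, where any ratio would share the same B220+ control. All groups therefore share the reporter allele, and the labels give no age, sex, treatment or number of mice. B220, an isoform of CD45, marks B cells, and plasma cells display the proteoglycan CD138. The labels give no Venus gate for the B220+ cells and no B220 gate for the Venus+ cells.

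A plasma cell is the antibody-secreting end stage of the B cell. Antibody chains enter the endoplasmic reticulum (ER), are folded, disulphide-bonded and glycosylated there, and leave in coated vesicles for the Golgi, while chains that fail to fold are pulled back to the cytosol and degraded. The unfolded protein response adjusts this capacity through the sensors IRE1, ATF6 and PERK. IRE1 splices the mRNA of Xbp1, and XBP1 and ATF6 act on short promoter elements of chaperone genes. IL-10, a cytokine that restrains inflammation, is made by a part of the plasma cells.

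With 1 array for each population there is no replicate check, no test was possible and array and population cannot be told apart. A normalized signal is the spot intensity above blank spots, scaled so that the median detected probe of an array is 25, and it was set only against the same probe on another array. The log2 ratio is that of the spleen Venus+ signal over the B220+ signal, given with a spot error that covers the spread of spots within arrays and nothing between mice or sorts. A gene was called higher or lower in the Venus+ cells when both arrays detected it and its signals differed by a factor of 2 or more. Where 1 array alone detected a gene, the fold is a lower bound. Fewer cells of a type and less RNA per cell cannot be told apart in these sorted pools. Of 8 B cell markers on the array, 8 were detected in the B220+ cells and 7, all lower, in the Venus+ cells. Of 7 plasma cell markers, 7 were detected in the Venus+ cells and 6, all higher in Venus+, in the B220+ cells.

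Of 11619 genes detected on both arrays, 1838 (15.8%) were higher in the Venus+ cells, 1922 (16.5%) were lower, and 32.4% were called either way. The median log2 ratio was -0.02. Large ratios were more often on the higher side: 236 genes were higher by 8-fold or more against 72 lower, and 49 against 8 passed 32-fold. A further 803 genes were detected in the Venus+ cells alone and 547 in the B220+ cells alone. The shares of higher and lower calls differed with the signal. With the genes put into 5 equal groups by signal, 23.8% were higher and 7.92% lower in the dimmest group, whereas in the brightest 8.61% were higher and 25.6% lower. The split also moved with the background correction. Higher genes made up 48.9% of all calls as reported. They made up 72.6% when spots without a probe gave both the subtracted background and the detection limit. The share was 16.4% with a normexp background on the spot alone and 38.6% without genes below a signal of 25. Normexp, a background model with an offset, made ratios smaller: of 179 named genes called as reported, 126 stayed 2-fold with it on the spot alone and 86 with the scanner files' local background. List values under normexp are given below in that order. Counts of lists as reported are read here against 15.8% and 16.5%, and their medians against -0.02. List values under normexp are to be read against those of all 11619 genes in the same setting. These were 319 and 383 higher and 1621 and 474 lower, with medians of -0.14 and -0.0064.

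**Figure D1:**
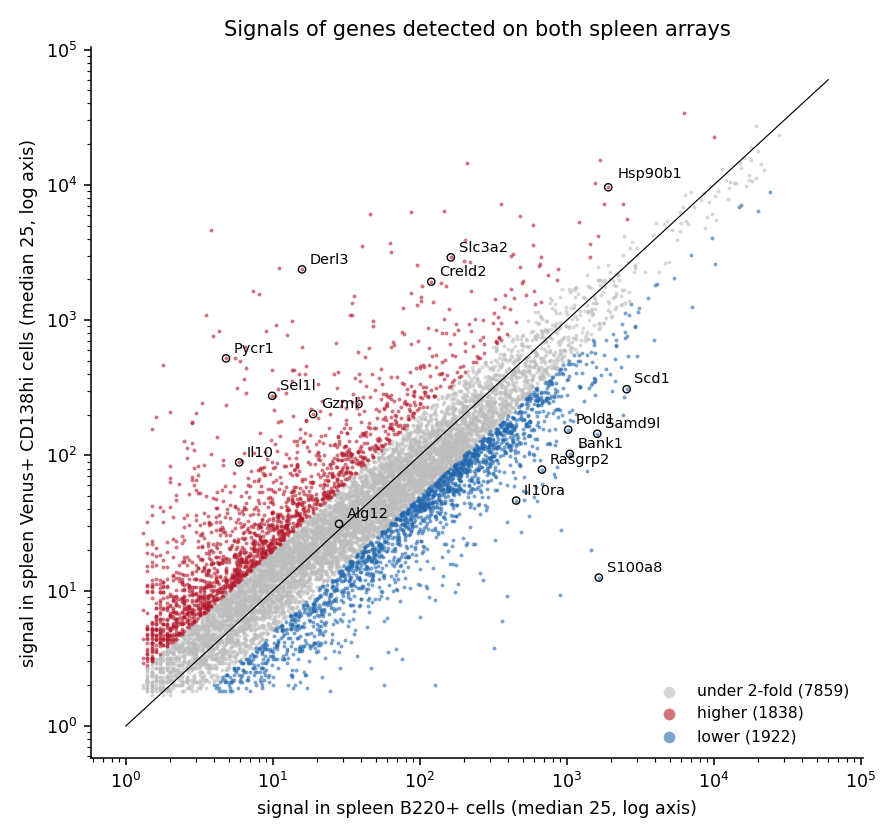
Normalized signal of each gene in spleen B220+ cells (x axis, log scale) and spleen Venus+ CD138hi cells (y axis, log scale), 1 array each, for the 11619 genes detected on both. Red points mark the 1838 genes higher by 2-fold or more and blue points the 1922 lower, the line marks equal signals, and circled genes are named in the text, with Derl3 (15.8 and 2375) far above the line and S100a8 (1650 and 12.5) far below it.

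**Figure D2:**
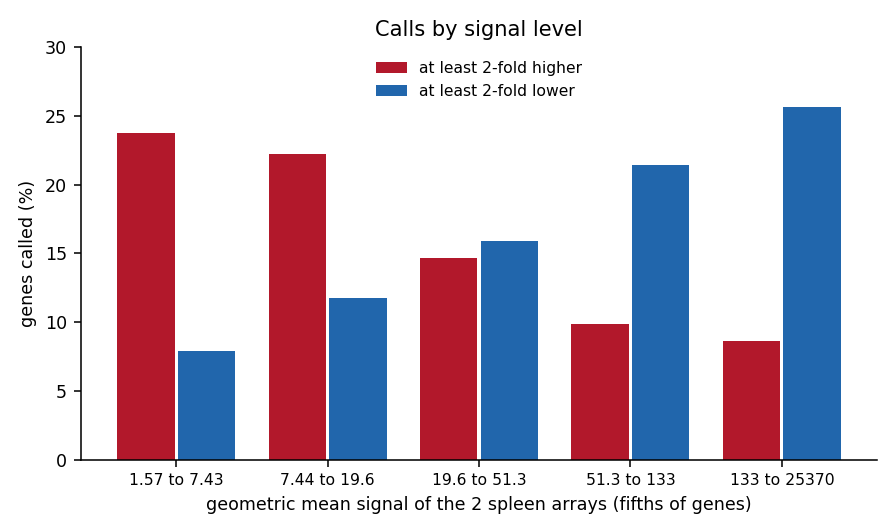
Share of genes called higher (red) or lower (blue) in the spleen Venus+ cells, in 5 equal groups of the 11619 genes by the geometric mean signal of the 2 arrays (x axis, signal range of each group). Higher calls run from 23.8% in the dimmest group to 8.61% in the brightest, and lower calls from 7.92% to 25.6%.

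The ER stress response element (ERSE) is the element by which ATF6 and XBP1 are known to act on chaperone genes. It is spelled CCAAT, any 9 bases and CCACG, and it was searched on both strands, where it reads CGTGG, any 9 bases and ATTGG, in the RefSeq promoter windows of GRCm38.p6 that run from 250 bases before to 50 bases after each gene start. Windows were found for 13127 of the 16390 genes. The element stood in 21 of them (0.16%), against 37 of the 27025 genes of the whole promoter table (0.137%). By class, 9 of 1445 higher genes (0.623%), 1 of 1545 lower genes (0.0647%) and 8 of 6381 genes between (0.125%) held it. Among the chaperone and folding genes it stood in 8 of 31 (25.8%), of which 7 were higher and none lower (median 1.85). Of the 22 without it that were measured on both arrays, 14 were higher and 1 lower (median 1.59). The sequences below are those of secretory genes in this set, printed on the strand of the gene, with the 19 bases of the element in capitals and 20 flanking bases on each side. They show that genes with the same spelled element had log2 ratios from near 0 to above 7.
Derl3 (chr10:75893222-75893280, plus strand): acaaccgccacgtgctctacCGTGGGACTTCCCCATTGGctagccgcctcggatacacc
Creld2 (chr15:88819500-88819558, plus strand): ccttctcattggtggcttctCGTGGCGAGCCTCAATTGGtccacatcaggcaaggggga
Alg12 (chr15:88819500-88819558, minus strand): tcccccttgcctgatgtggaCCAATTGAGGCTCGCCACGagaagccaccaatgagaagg
Dnajc3 (chr14:118937807-118937865, plus strand): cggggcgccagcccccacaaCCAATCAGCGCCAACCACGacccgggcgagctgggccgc
Hsp90b1 (chr10:86705618-86705676, minus strand): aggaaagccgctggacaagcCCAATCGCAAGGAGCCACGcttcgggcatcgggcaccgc
Hspa5 (chr2:34772005-34772063, plus strand): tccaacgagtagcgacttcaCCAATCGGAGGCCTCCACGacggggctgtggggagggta
Pdia6 (chr12:17266471-17266529, plus strand): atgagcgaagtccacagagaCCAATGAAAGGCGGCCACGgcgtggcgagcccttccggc
Canx (chr11:50325780-50325838, minus strand): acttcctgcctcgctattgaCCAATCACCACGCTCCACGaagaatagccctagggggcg
Syvn1 (chr19:6046512-6046570, plus strand): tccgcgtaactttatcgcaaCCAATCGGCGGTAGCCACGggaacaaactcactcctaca

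Derl3, which encodes a channel component of ER-associated degradation, had a signal of 15.8 in B220+ cells and 2375 in spleen Venus+ cells. It was 150-fold higher (log2 ratio 7.23 ± 0.15, spot error). Creld2, an ER protein that assists folding, had signals of 119.6 and 1925 and stood at 4.01 ± 0.14. The stretch printed for it is the one printed for Alg12 read from the other strand, with the same element. Alg12, a mannosyltransferase of N-glycan assembly, lies head to head with Creld2, and their windows overlap. Alg12 had signals of 28.2 and 31.2, a log2 ratio of 0.15 ± 0.15. One side of this promoter thus differed 16.1-fold between the arrays and the other by about its spot error.

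Dnajc3, a co-chaperone of the ER, had signals of 75.6 and 822.2 (3.44 ± 0.14). The major chaperones Hsp90b1 (GRP94) and Hspa5 (BiP) were bright on both arrays, with 1913 against 9603 and 1795 against 7266, and were 5.02-fold and 4.05-fold higher. Hsp90b1 had a second match nearer to its start. Pdia6, a disulphide isomerase, had 876.8 and 2393 (1.45 ± 0.14), and Calr (calreticulin), whose window also held the element, 67.4 and 198.7 (1.56 ± 0.14). The lectin chaperone Canx and the ubiquitin ligase Syvn1 (HRD1) carried the element too and lay under 2-fold, at 0.34 ± 0.14 and 0.58 ± 0.14. The gene with the element that was lower was Pan2, a subunit of a deadenylase (100.3 and 46.1, -1.12 ± 0.14). A match describes the letters of the window and shows no binding.

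**Figure D3:**
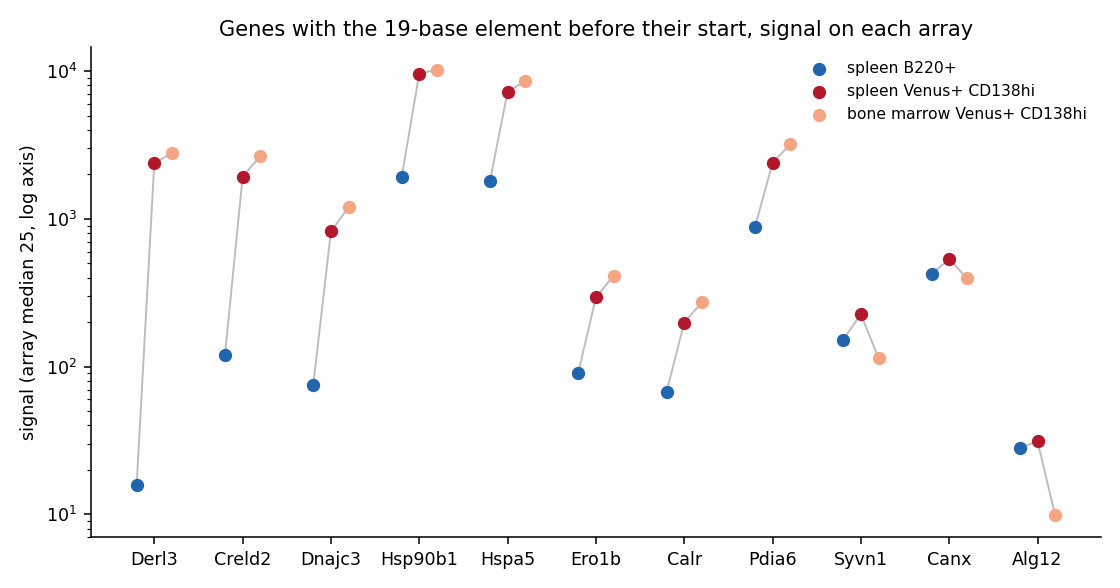
Normalized signal (y axis, log scale) of the 11 genes of the secretory lists with the ERSE before their start (x axis), on the arrays of spleen B220+ (blue), spleen Venus+ CD138hi (red) and bone marrow Venus+ CD138hi cells (orange), 1 array each, joined by grey lines. Of the 11, Derl3 spans 15.8 to 2375 in the spleen, while Alg12 stays at 28.2 and 31.2.

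The folding machinery was the most uniformly higher of the lists of the secretory route. Of 35 chaperone and folding genes on both arrays, 26 (74.3%) were higher and 1 (2.86%) lower, with a median log2 ratio of 1.69. Fkbp11, a prolyl isomerase of the ER, had signals of 13.6 and 429.0 and stood highest at 4.98 ± 0.15. Sdf2l1, a partner of BiP, had 101.8 and 1397 (3.78 ± 0.14), and the disulphide isomerase Pdia4 had 151.1 and 1778 (3.56 ± 0.14). Mzb1, which helps to assemble IgM, was already bright in B220+ cells at 1690 and reached 15172. At the low end, the transmembrane thioredoxin Tmx1 had 267.9 and 132.6 (-1.01 ± 0.14), Fkbp7 had 14 and 7.5 and the co-chaperone Dnajc10 had 81.1 and 53.0. The median stayed between 1.08 and 2.11 under every alternative tried.

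The sensors and transcription factors of the unfolded protein response differed among themselves. Of 18 measured on both arrays, 7 were higher and 2 lower (median 0.67, or 0.06 and 0.14 under normexp, with 3 and 4 higher and 3 and 1 lower). The ATF6 family lay on the higher side: Atf6 had signals of 27.2 and 67.3 (1.31 ± 0.14) and Atf6b 14.3 and 58.0 (2.02 ± 0.15). Creb3l2, a related membrane-bound factor, was near the detection limit in B220+ cells at 2.2 and reached 23.2 (3.40 ± 0.46). Its relative Creb3 was higher at 1.07 ± 0.14. Creb3l1 and Creb3l3 lay under 2-fold, at -0.11 ± 0.14 and 0.66 ± 0.40, and Creb3l4 was detected on neither array. Ern1, the gene of IRE1, was detected in Venus+ cells alone, at a signal of 4.2 near the limit. The PERK branch was split. Eif2ak3 (PERK) had 494.7 and 241.1 (-1.04 ± 0.14), and Ppp1r15b, the constitutive regulator of the phosphatase that reverses PERK signalling, had 416.3 and 147.7 (-1.50 ± 0.14).

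Downstream of PERK, Atf4 and Ddit3 (CHOP) lay under 2-fold, at 0.17 ± 0.14 and -0.45 ± 0.14. By contrast Ppp1r15a, the inducible counterpart of Ppp1r15b, had 20.3 and 190.6 (3.23 ± 0.15). Atf5, a stress-induced factor, had 3.4 and 85.6 (4.65 ± 0.32), and Chac1, a glutathione-degrading enzyme, was at least 91.3-fold higher, with 123.2 in Venus+ cells. The last 3 genes are also known targets of the integrated stress response. Bhlha15 (MIST1), a factor of secretory cells, had 67.1 and 62.4.

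Entry into the ER differed by complex. Of 24 genes of the signal recognition particle, translocon and signal peptidase, 11 (45.8%) were higher and none lower (median 0.78, or 0.20 and 0.70 under normexp, with 8 and 6 higher and 0 and 0 lower). The translocon genes Sec62 (414.6 and 3005, 2.86 ± 0.14), Sec61a1 (128.6 and 555.7, turning to -0.90 with the scanner files' local background) and Sec61b (1617 and 4162) were higher, as were the translocon-associated Ssr4 (431.3 and 3069) and Ssr2 (314.8 and 952.3). The signal peptidase genes Sec11c, Spcs2, Spcs1 and Spcs3 stood at 2.14, 2.13, 2.04 and 1.49, each ± 0.14. Sec11a, the alternative catalytic subunit to Sec11c, stood at -0.37 ± 0.14. The particle that brings ribosomes to the membrane lay under 2-fold throughout: Srp68 at 0.44, Srp19 at 0.43, Srp72 at 0.15, Srp14 at -0.19, Srp54a at -0.33 and Srp9 at -0.42, each ± 0.14. Its receptor gene Srpr had 90.6 and 298.6 (1.72 ± 0.14).

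N-glycans, the branched sugars put on antibody chains in the ER, involve 47 measured genes, of which 16 were higher and 2 lower (median 0.78, or 0.11 and 0.37 under normexp, with 8 and 7 higher and 1 and 0 lower). Fut8, which adds the core fucose of IgG and other glycoproteins, had signals of 21.7 and 251.0 (3.53 ± 0.14, but -0.30 with the scanner files' local background). Gmppa, which regulates the supply of GDP-mannose, had 14.7 and 119.4 (3.02 ± 0.15), and Dpagt1, which starts the lipid-linked sugar, had 33.5 and 159.8 (2.25 ± 0.14). Gnpnat1, of the hexosamine pathway, was lower at -1.04 ± 0.21.

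The oligosaccharyltransferase, which transfers the finished sugar, has 12 subunit genes here, a subset chosen after its values were seen. Of these, 7 were higher, 1 lower and 4 between. Ddost had 175.0 and 943.6 (2.43 ± 0.14), Krtcap2 660.2 and 2613 (1.98 ± 0.14) and Rpn1 223.0 and 829.6 (1.90 ± 0.14). The catalytic subunits form separate complexes. Stt3a, of the complex that works beside the translocon, had 183.9 and 379.5 (1.05 ± 0.14), and Stt3b had 147.3 and 176.1 (0.26 ± 0.14). Tusc3, a subunit of the STT3B complex, was the lower one, with 79.4 and 33.3 (-1.25 ± 0.14, but 0.02 with the scanner files' local background), and its alternative Magt1 stood at 0.96 ± 0.14.

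ER-associated degradation had 13 of 30 genes higher (43.3%) and 1 lower (3.33%) (median 0.76, or 0.16 and 0.31 under normexp, with 6 and 9 higher and 2 and 0 lower). Besides Derl3, the adaptor Sel1l had signals of 9.9 and 275.9 (4.80 ± 0.17), the mannose-trimming Edem2 42.3 and 533.0 (3.66 ± 0.14) and the ubiquitin-conjugating Ube2j1 52.9 and 376.0 (2.83 ± 0.14). Paralogues differed. Derl1 was higher at 1.43 and Derl2 lay at 0.82, each ± 0.14, while Edem1 stood at 1.08 and Edem3 at -0.33. Ube2j2 had 54.3 and 57.3. Herpud1, a stress-induced scaffold of the ligase complex, had 324.1 and 1428 (2.14 ± 0.14) and its paralogue Herpud2 172.0 and 90.4 (-0.93 ± 0.14). The lectins Os9 and Erlec1 stood at 1.73 and 1.70, although a second Os9 probe gave -0.19. Vcp, the ATPase that extracts the chains, had 402.9 and 770.0 (0.93 ± 0.14). The lower gene was Rnf139, a ligase linked to sterol control (154.1 and 57.5, -1.42 ± 0.14).

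The vesicle coats were higher in part. Of 73 genes of COPII, COPI and their cargo receptors, 22 (30.1%) were higher and 4 (5.48%) lower (median 0.45). Among the cargo receptors, Tmed3 had signals of 56.4 and 282.6 (2.33 ± 0.14), Lman1, which carries glycoproteins, 115.2 and 468.0 (2.02 ± 0.14) and Surf4 68.1 and 183.0 (1.43 ± 0.14). Kdelr1, a receptor that returns ER proteins, had 354.2 and 960.6, and Kdelr3 was detected in Venus+ cells alone, at least 9.78-fold higher. The COPII cargo adaptors went apart, with Sec24d at 2.44 ± 0.14, Sec24a at 1.11 ± 0.15 (-0.0043 with the scanner files' local background), Sec24c at -0.03 ± 0.14 and Sec24b at -1.56 ± 0.14. Sec24d had signals of 31.4 and 169.9, and Sec24b 189.6 and 64.2. In COPI, Copz2 stood at 3.33 ± 0.20 beside Copz1 at 0.54 ± 0.14, and Copb1 stood at -0.58 ± 0.14. The GTPases Sar1a and Sar1b, which start coat assembly, lay at 0.34 and 0.32, each ± 0.14. Under normexp the list's median was -0.01 and 0.21, with 8 and 9 higher and 4 and 3 lower.

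**Figure D4:**
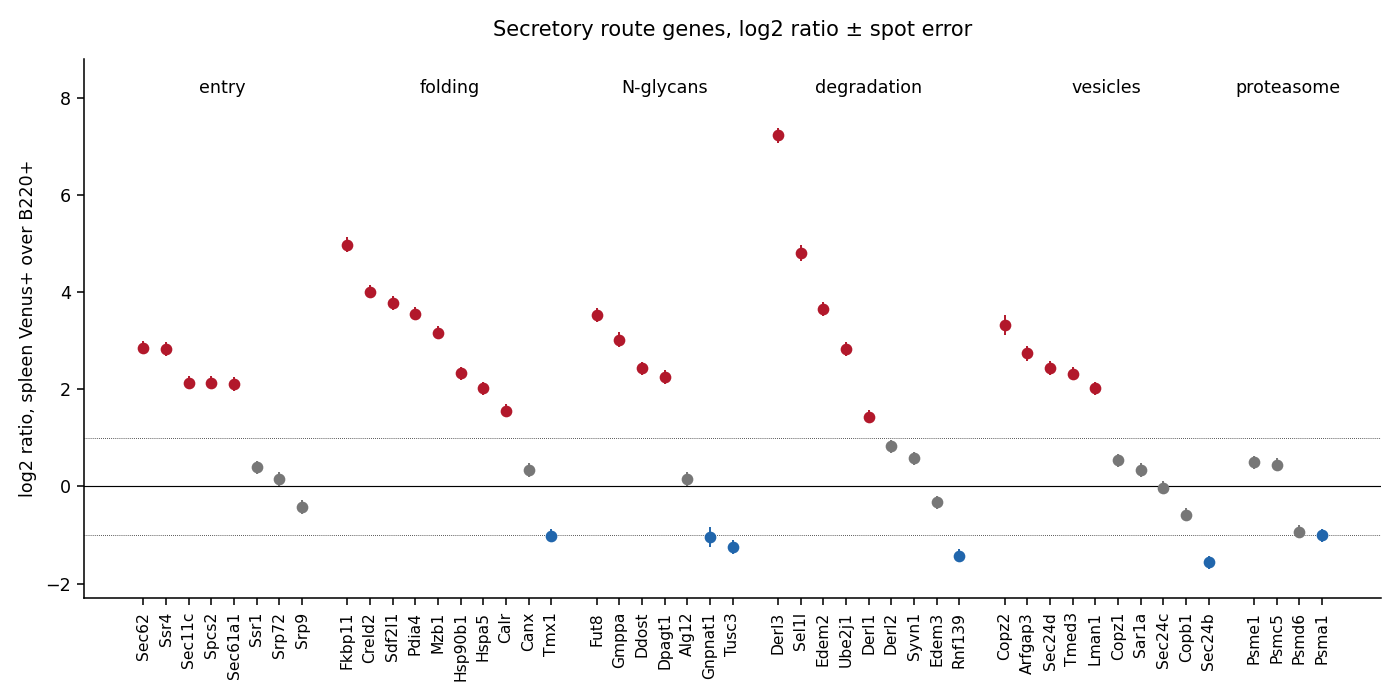
Log2 ratio of spleen Venus+ CD138hi over spleen B220+ signal (y axis, points with ± spot error) for genes of the secretory route (x axis) ordered by step, 1 array each. Red marks a gene called higher, blue one called lower and grey the rest; Derl3 at 7.23 and Fkbp11 at 4.98 stand highest, and the proteasome genes lie between 0.50 and -1.01.

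Lists of later trafficking and degradation had fewer higher genes than those of the ER. SNARE proteins, which fuse vesicles, had 3 of 30 genes higher and 3 lower (median 0.09), with Vamp4 lowest at -1.60 ± 0.15. Rab GTPases had 4 of 46 higher and 3 lower (median -0.12). Among them Rab3d, known in secretory granules, had 16.9 and 58.2 (1.78 ± 0.15), and Rab39 had 83.3 and 17.6 (-2.24 ± 0.15). The V-ATPase had 2 of 20 genes higher and none lower. Of 12 cathepsin genes (median 0.42), Ctsb (182.4 and 852.6) and Ctsd (140.5 and 408.6) were higher and Ctsc (396.9 and 197.2) was lower. Autophagy genes had 3 of 34 higher and 5 lower, with the receptor Sqstm1 at 1.55 ± 0.14 and the kinase Ulk2 at -2.29 ± 0.16 (0.12 with the scanner files' local background). Proteasome subunits, by which the extracted chains are degraded, had none of 41 higher and 1 lower, Psma1 at -1.01 ± 0.14, and a median of -0.15. As reported, degradation genes of the ER membrane were thus often called and the proteasome hardly at all. Under normexp the proteasome had 0 and 4 higher and 5 and 2 lower (medians -0.57 and 0.15). With the local background its share of higher genes was above that of all genes.

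As reported, the machinery of protein synthesis was also little called. Cytosolic ribosomal proteins had 1 of 54 genes higher and 3 lower (median -0.20), and mitochondrial ribosomal proteins 1 of 76 higher and 11 lower (median -0.25). Under normexp the cytosolic ones had 0 and 8 higher and 10 and 6 lower. In the same settings the mitochondrial ones had 0 and 3 higher and 12 and 5 lower. Initiation and elongation factors had 2 of 44 higher and 4 lower (under normexp 1 and 6 higher and 8 and 2 lower). The exception at the top was Eef1a2, an elongation factor of muscle and nerve, with signals of 9.7 and 131.0 (3.76 ± 0.17). Aminoacyl-tRNA synthetases had 1 of 30 higher (Cars, 59.3 and 134.0) and 4 lower, among them Farsb with 104.7 and 19.5 (-2.42 ± 0.15). The respiratory chain and ATP synthase had 5 of 83 higher and 1 lower (median -0.01). Under normexp they had 1 and 9 higher and 8 and 5 lower (medians -0.47 and 0.18). Glycolysis had 3 of 26 higher and 2 lower, with the glucose transporter Slc2a3 lowest at -3.11 ± 0.18 (97.3 and 11.3) and Hk2 at 1.42 ± 0.14. The medians of these lists lay between -0.25 and 0.11 as reported, and each turned its sign under 1 or more alternatives. With the local background, cytosolic ribosomal proteins, initiation and elongation factors and the respiratory chain were called in larger shares than all genes.

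Amino acid supply was called more often. Of 33 genes of transport and synthesis, 11 (33.3%) were higher and 1 (3.03%) lower (median 0.30, or 0.02 and 0.03 under normexp, with 4 and 4 higher and 0 and 0 lower). A further 6 were detected in Venus+ cells alone and 1 in B220+ cells alone. Pycr1, the last enzyme of proline synthesis, had signals of 4.8 and 522 (6.76 ± 0.24). Asns, which makes asparagine, had 2.8 and 176.3 (5.98 ± 0.37). Slc3a2, the shared heavy chain of several transporters, had 162.4 and 2915 (4.17 ± 0.14), and its partner Slc7a7, a carrier of basic amino acids, 20.4 and 335.4 (4.04 ± 0.15). Slc43a2, a carrier of large neutral amino acids, was the lower one at -2.49 ± 0.54.

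Membrane lipid genes were mixed. In phospholipid synthesis 6 of 27 genes were higher and 3 lower (median 0.36, or -0.08 and 0.08 under normexp, with 1 and 0 higher and 4 and 0 lower). Of the choline route 3 genes were higher: the transporter Slc44a1 (5.1 and 34.7, 2.77 ± 0.24), Pcyt1a, the rate-limiting enzyme of the route (28.9 and 150.3, 2.38 ± 0.14) and the kinase Chka (23.7 and 64.3, 1.44 ± 0.14). The later Cept1 was lower, with 245.7 and 103.3 (-1.25 ± 0.14). In sterol and fatty acid synthesis 5 of 33 were higher and 4 lower. Fasn, the fatty acid synthase, had 34.3 and 82.7 (1.27 ± 0.14). Scd1, which desaturates its products, had 2552 and 308.8 (-3.05 ± 0.14), and the elongase Elovl5 had 574.0 and 155.4 (-1.89 ± 0.14).

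On the B cell side, the surface list had none of 28 genes higher and 15 (53.6%) lower (median -1.09, or -1.42 and -0.69 under normexp, with 0 and 0 higher and 18 and 9 lower). Fcrl1, an Fc receptor-like protein, had signals of 503.7 and 54.6 (-3.21 ± 0.14), Cd55, a complement regulator, 1044 and 182.4 (-2.52 ± 0.14), and the IgE receptor Fcer2a (CD23) 349.3 and 62.4 (-2.48 ± 0.14). Icosl and the complement receptor Cr2 were detected in B220+ cells alone, at least 13.2-fold and 58.1-fold lower. Several B cell genes lay near equality in the spleen. Fcmr, the IgM receptor, had 3012 and 3418, Ly86 (MD-1) 1498 and 1332, and Cd52 8114 and 7797. The marrow Venus+ array had 219.1, 25.3 and 11610 for these 3 genes. Blk, a B cell kinase, had 718.3, 981.5 and 48.3 on the B220+, spleen Venus+ and marrow Venus+ arrays. So Fcmr, Ly86 and Blk, bright in the spleen Venus+ sample, were much dimmer in the marrow one, and Cd52 was not.

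Transcription factors of B cells went both ways, with 10 of 52 higher and 16 lower. Id3, an inhibitor of E proteins, had signals of 1361 and 76.8 (-4.15 ± 0.14), and Bcl11a 818.6 and 73.5 (-3.48 ± 0.14). Zbtb32, a repressor known from memory B cell responses, had 5.1 and 53.5 (3.39 ± 0.24) and was not detected in the marrow. Gfi1 had 21.0 and 92.5 (2.14 ± 0.15), and Ikzf2 (Helios) 2.7 and 17.0 (2.65 ± 0.39).

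Within B cell receptor signalling, 2 of 43 genes (4.65%) were higher and 16 (37.2%) lower (median -0.44, or -0.65 and -0.08 under normexp, with 1 and 1 higher and 16 and 8 lower). Bank1 was the lowest of the list, with signals of 1046.8 and 102.8 (-3.35 ± 0.14). Members of 1 step differed. The calcium channels Itpr3 (770.4 and 122.2, -2.66 ± 0.14) and Itpr1 (140.8 and 27.1, -2.38 ± 0.14) release calcium from the ER, and their relative Itpr2 (4.1 and 4.8) and the surface channel gene Orai1 (80.8 and 118.9) lay under 2-fold. Rasgrp2, an exchange factor driven by calcium, had 677.1 and 78.6 (-3.11 ± 0.14, but 0.77 with the scanner files' local background), and the diacylglycerol-dependent kinase Prkcb 554.2 and 141.7 (-1.97 ± 0.14), while the related Prkcd lay at -0.19 ± 0.14. Malt1, which links it to NF-kB, stood at -1.81 ± 0.14. The adaptor Blnk (5374 and 2049) and the kinase Btk (451.0 and 166.4) were 2.62-fold and 2.71-fold lower. The kinase Syk, the phospholipase Plcg2 and the phosphatase Inpp5d lay at -0.41, -0.04 and -0.44, each ± 0.14. Higher were Ptpn22, a phosphatase that dampens receptor signals (100.8 and 458.2, 2.18 ± 0.14), and Dok3, an inhibitory adaptor (256.5 and 525.0, 1.03 ± 0.14).

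Toll-like receptor signalling had 3 of 27 genes higher and 6 lower. Ly96 (MD-2), the partner of TLR4 in sensing lipopolysaccharide, had signals of 60.0 and 245.4 (2.03 ± 0.14), while Tlr4 itself had 33.0 and 30.9. Tlr1 had 385.5 and 103.4 (-1.90 ± 0.14), and Irak3, an inhibitor of the pathway, 70.5 and 13.9 (-2.34 ± 0.16). Slc15a4 and Irf5, which act with the endosomal receptors, were lower at -1.30 and -1.26, each ± 0.14, and Unc93b1, which carries those receptors, stood at 0.31 ± 0.14. Of the 16 measured genes of antigen presentation 2 were higher and 3 lower. B2m, the light chain of MHC class I, had 10015 and 22638 (1.18 ± 0.14), and Ifi30, a thiol reductase of antigen processing, 2141 and 356.3 (-2.59 ± 0.14).

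Interferon-induced genes had 5 of 42 (11.9%) higher and 15 (35.7%) lower (median -0.68, or -0.47 and -0.11 under normexp, with 1 and 1 higher and 14 and 3 lower). Samd9l had signals of 1610 and 144.7 (-3.48 ± 0.14), and the antiviral synthetase gene Oas1a 44.8 and 7.0 (-2.68 ± 0.23). Stat2, which carries the interferon signal, had 183.7 and 51.7 (-1.83 ± 0.14, but 0.10 with the scanner files' local background). On the other side, the exonuclease gene Isg20 had 112.8 and 882.3 (2.97 ± 0.14), Gbp7, a GTPase induced by interferon, 19.1 and 43.8 (1.20 ± 0.15), and Ifi203 1.4 and 32.1 (4.52 ± 0.71). Interferon response elements, spelled GAAA, any 2 bases and GAAA and searched on both strands, stood in 21 of the 36 list members with a promoter window (58.3%), against 488 of 13127 genes on the array (3.72%) and 59 of 1545 lower genes (3.82%). Of the 18 list members with the element that were measured on both arrays, 3 were higher and 5 lower (median -0.30). Of the 12 without it, 1 was higher and 5 lower (median -0.90). The 3 promoters printed here, on the strand of the gene with 1 match in capitals (in Oas1a a second match overlaps it), come from genes that lay on opposite sides.
Oas1a (chr5:120907526-120907555, minus strand): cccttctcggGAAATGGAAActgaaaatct
Stat2 (chr10:128270266-128270295, plus strand): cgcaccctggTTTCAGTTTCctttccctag
Gbp7 (chr3:142530273-142530302, plus strand): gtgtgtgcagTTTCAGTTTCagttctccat

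Cytokine receptors and their signalling genes had 7 of 45 (15.6%) higher and 14 (31.1%) lower (median -0.31, or -0.29 and -0.02 under normexp, with 2 and 2 higher and 14 and 6 lower). Among the lowest was the receptor for the cytokine that the reporter marks. Il10ra, the ligand-binding chain of the IL-10 receptor, had signals of 452.0 and 46.4 (-3.28 ± 0.14). Il21r and Il4ra, receptors for helper T cell cytokines, had 177.2 and 15.6 (-3.51 ± 0.16) and 410.5 and 85.5 (-2.26 ± 0.14). Stat4 had 334.5 and 55.6 (-2.59 ± 0.14). Higher were Il13ra2, a decoy receptor for IL-13 (159.0 and 1219, 2.94 ± 0.14), Il5ra (58.5 and 183.0, 1.65 ± 0.14) and the feedback inhibitor Socs2 (9.9 and 90.2, 3.19 ± 0.17). Il13ra1 was detected in Venus+ cells alone, at least 30.7-fold higher.

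Cytokine and chemokine genes numbered 48 on both arrays, with 17 (35.4%) higher, 11 (22.9%) lower and a median of 0.45 (or 0.0051 and 0.04 under normexp, with 6 and 5 higher and 5 and 2 lower), and 27 more were detected on neither. Il13 itself had signals of 34.3 and 1094 (4.99 ± 0.14), beside its receptor genes above. Il10, which the sort selected for through Venus, had 5.9 and 88.8. Of genes detected in 1 population, 5 were in Venus+ cells alone and 7 in B220+ cells alone, and with their bounds the median was 0.28. Among the 5, Cxcl13, a chemokine that attracts B cells, was at least 10.4-fold higher. The lowest were Il12a (114.7 and 9.0), Tnf (16.7 and 2.4), Lta (22.5 and 4.2) and Clcf1 (18.1 and 3.9), with ratios from -3.67 ± 0.20 to -2.21 ± 0.35.

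In the TNF superfamily 7 of 24 genes were higher and 2 lower, and 7 more were detected in Venus+ cells alone. The median of 0.41 was 0.0028 and 0.0059 under normexp, with 0 and 0 higher and 1 and 1 lower. Tnfrsf17 (BCMA), the survival receptor of plasma cells, had 1435 in Venus+ cells and was at least 1063-fold higher. Tnfrsf1b, a receptor for TNF, had 38.9 and 140 (1.85 ± 0.14), and Tnfsf8 (CD30 ligand) 8.7 and 44.6 (2.36 ± 0.18). Inhibitory receptors and their ligands had 9 of 23 higher (39.1%) and 5 lower (21.7%). Entpd1 (CD39), an enzyme that degrades extracellular ATP, had 7.1 and 77.2 (3.44 ± 0.19). Vsir (VISTA) had 14.7 and 86.7 (2.56 ± 0.15), Lag3 5.0 and 20.8 (2.06 ± 0.24) and Pdcd1lg2 (PD-L2) 13.2 and 53.4 (2.02 ± 0.16). The ligand Cd274 (PD-L1) lay at 0.76 ± 0.14, and Btla had 1581 and 450.1 (-1.81 ± 0.14). With either normexp background the median of this list was within 0.02 of 0.

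Receptors for migration had 7 of 23 higher and 10 lower (median -0.37, or -0.27 and -0.13 under normexp, with 1 and 0 higher and 9 and 4 lower). Ackr3, a scavenger of CXCL12, had signals of 10.3 and 122 (3.57 ± 0.17), and Ccr9, a gut-homing receptor, 4.2 and 40.7 (3.28 ± 0.27). Ccr10, a receptor of mucosal plasma cells, was at least 12.4-fold higher, with 16.8 in the spleen and 105.8 in the marrow sample. The lower genes included the cannabinoid receptor Cnr2 (204.9 and 21.7, -3.24 ± 0.15) and the prostaglandin receptor Ptger4 (28.4 and 3.5, -3.02 ± 0.38). Ccr6 had 901.2 and 9.3 as reported but turned to 0.50 with the scanner files' local background, which exceeded the spot on the B220+ array. Adhesion genes had 9 of 36 higher and 3 lower (median 0.31, or 0.0066 and 0.02 under normexp, with 4 and 3 higher and 3 and 0 lower). Itgal, a chain of LFA-1, had 12.3 and 101.7 (3.05 ± 0.16), Mcam 8.2 and 81.2 (3.31 ± 0.18), and Pecam1 148.7 and 33.8 (-2.14 ± 0.14).

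The cell cycle list had 5 of 105 genes (4.76%) higher and 50 (47.6%) lower (median -0.95). Pold1, the catalytic subunit of DNA polymerase delta, had signals of 1021 and 155.0 (-2.72 ± 0.14). Bub1, Cenpe and Ect2, which act in mitosis, had 12.6, 24.6 and 13.6 in B220+ cells and 2.0, 1.8 and 2.3 in Venus+ cells. These Venus+ signals lay near the lowest detected on that array (1.7), and the spot errors of the log2 ratios were 0.65, 0.71 and 0.57. Cdkn1a, the gene of the inhibitor p21, had 3.1 and 21.1 (2.77 ± 0.35), and Cdk6 34.2 and 72.9 (1.09 ± 0.14). Mki67, a proliferation marker named here after its value was seen, had 88.2 and 100.5. The cell cycle homology region, spelled TTTGAA, stood in 41 of the 96 members with a promoter window (42.7%), against 16.5% of genes on the array. Of the 36 with it on both arrays 15 were lower, and of the 52 without it 28. The E2F element TTTCCCGC stood in 11 of 96 (11.5%), against 1.84% of genes on the array and 3.62% of all lower genes. Both motifs were searched on both strands. The median was -0.58 with normexp on the spot alone and -0.11 with the local background.

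Regulators of apoptosis were seldom called, with 1 of 34 higher and 4 lower. The higher gene was Bcl2l11 (BIM), which promotes apoptosis, at 2.25 ± 0.35 with signals of 3.1 and 14.7. Birc3, an inhibitor of apoptosis, had 558.6 and 176.0 (-1.67 ± 0.14), and Apaf1, a core of the apoptosome, 27.4 and 10.2 (-1.43 ± 0.19). Bcl2 stood at 0.96 ± 0.14, and its second probe at 2.62. Immediate-early genes, the first wave of a cell's response to stimulation or handling, had 10 of 37 higher and 8 lower (under normexp 5 and 8 higher and 8 and 6 lower). Fos had 8.0 and 1549 (7.60 ± 0.18) and Dusp1 10.4 and 82.2 (2.98 ± 0.17), whereas Rgs2 had 680.1 and 61.1 (-3.48 ± 0.14), Gadd45g 238.4 and 22 (-3.44 ± 0.15) and Btg1 7146 and 1250 (-2.52 ± 0.14).

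**Figure D5:**
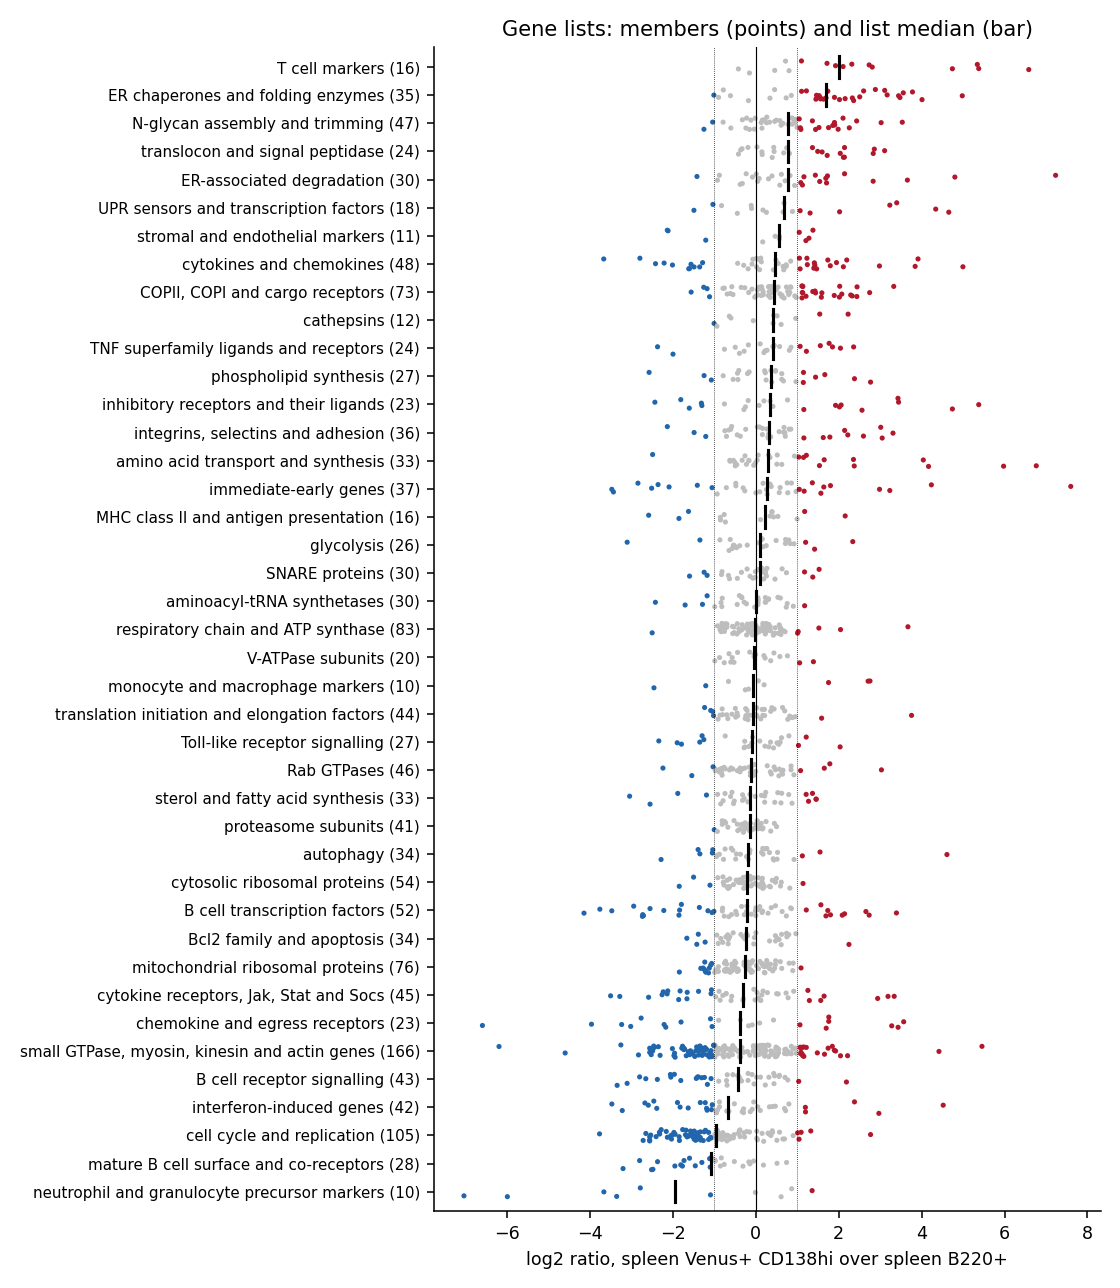
Log2 ratio of spleen Venus+ CD138hi over spleen B220+ signal (x axis) for the members of the gene lists with 10 or more genes on both arrays, without the identity, solute carrier and Zfp lists (y axis, number of genes in brackets), as points (red called higher, blue called lower, grey between), with the list median as a bar. Chaperones (median 1.69) lie at the top of the cell-intrinsic lists, proteasome and ribosomal lists near 0, and the B cell surface list (-1.09) near the bottom.

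Markers of other cell types differed between the arrays. Granulocyte markers were mostly higher in the B220+ sample: of 25 on the array 10 were detected there alone, 6 of the 10 on both arrays were lower in Venus+ cells and 1 was higher, and the summed signal was 5842 against 207.9. The median was -1.94, or -0.94 and -0.39 under normexp, with 0 and 0 higher and 5 and 4 lower. Ly6g, a defining surface marker, went the other way with 38.9 and 99.6 (1.36 ± 0.14), and Pglyrp1 had 23.8 and 23.6. S100a8 had 1650 and 12.5, S100a9 2553 in B220+ cells alone, and Camp 491.1 in B220+ cells alone. Itgam and Prtn3, defining genes of the lineage, were detected on neither array. Their part in the lower calls was not tested.

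T cell markers were higher in the Venus+ sample. Of 25 on the array, 11 of 16 on both arrays were higher and none was lower (median 2.01, or 0.32 and 0.05 under normexp, with 4 and 2 higher and 0 and 0 lower). A further 6 were detected in Venus+ cells alone and 1 in B220+ cells alone. The summed signal was 465.1 in B220+ and 1898 in Venus+ cells. Most of the sum came from Cd28 (5.5 and 527.7) and Cd247 (15.7 and 637.0). Cd28 is also a known plasma cell receptor. Of the defining genes of the T cell receptor complex, named after their values were seen, Cd3g had 55.7 in Venus+ cells and was not detected in B220+ cells, Cd3d had 7.9 and 39.3, and Cd3e had 7.6 in Venus+ cells alone. Foxp3 and Cd40lg were detected on neither. Ctla4 (2.0 and 83.1) and Cd5 (3.1 and 82.9) belong to this list as well as to the inhibitory one, and the part of T cells in their ratios was not tested. On the marrow Venus+ array Cd3g, Cd5 and Ctla4 had 9.0, 7.7 and 25.3, while Cd28 and Cd247 had 476.8 and 1039.

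Other lists moved less evenly. NK cell markers had 4 of 8 higher and 1 lower (median 0.91, or 0.11 and -0.05 under normexp, with 1 and 1 higher and 0 and 0 lower), led by Gzmb, the gene of granzyme B, with 18.8 and 202.2 (3.43 ± 0.15). Of the NK cell markers, 2 more were detected in Venus+ cells alone and 1 in B220+ cells alone. Ncr1 and Prf1, typical of NK cells, were at or below 4.0 on both arrays. Basophil, mast cell and eosinophil markers had 5 of 8 higher and none lower (median 1.34, or 0.25 and 0.29 under normexp, with 1 and 1 higher and 0 and 0 lower). Prg2, which encodes eosinophil major basic protein and is also known in plasma cells, had 3.8 and 4646 and made up most of the summed signal of 5006. Prg3 had 2.2 and 21.1 and the basophil protease gene Mcpt8 17.5 and 43.0. Of 3 markers detected in Venus+ cells alone, Kit had 36.0 and Gata2 19.1, and 1 marker was detected in B220+ cells alone. Epx, Fcer1a and Siglecf were detected on neither. Of monocyte and macrophage markers 3 of 10 were higher and 2 lower, with Ly6c1, which plasma cells are known to express, at 1543 and 10400, and 7 more in B220+ cells alone. Dendritic cell markers had 4 of 9 higher and 2 lower, erythroid markers 1 of 6 and 3, megakaryocyte markers 0 of 7 and 1, and stromal markers 4 of 11 and 3. The part of these cells in the calls was not tested.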

How the data were processed

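RNA of each sorted population was labelled with Cy5 and hybridized to a Toray 3D-Gene mouse oligonucleotide array, per the labels. The deposited table holds normalized intensity: the authors took off the average blank spot (95% interval) and scaled detected signals to a median of 25, per the series' design text. Set against the deposited scanner files, the table was linear and uncentred, and a limit at the mean plus 2 SD of the middle 90% of blank spots gave 0 differing detection calls. Missing values were read as undetected; 72.1% of probes were detected in B220+ and 73.4% in Venus+ cells.

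Symbols came from the platform annotation, updated through RefSeq synonyms (12622 current, 3947 updated, 62 kept as given). A gene with several probes was represented by the probe detected on most arrays, then by the brightest; among 128 genes with 2 detected probes, log2 ratios differed by a median of 0.69. The spot error combines the blank SD (0.67 and 0.868) and the relative SD of 24 copies of positive controls (7.57% and 5.77%). Bounds set the bright signal against the smallest signal that the other array detected (1.3 and 1.7) plus 0.05.

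The genes, 50 lists and motifs were chosen with earlier results of these data known, and 3 list patterns were narrowed after their values were seen. The genes described were picked, with values known, from a larger set given by a rule: sort and identity genes, the 15 largest and smallest ratios, the 10 largest bounds, up to 4 ratios each way and 2 bounds per list, members of lists of up to 15 or with stated roles, and genes with printed promoters, ranked from a signal of 10; a rule on ER-retention signals was not used here. Calr, Pan2, Mki67, the oligosaccharyltransferase subunits and defining markers of other cells were named after their values were seen. On simulated data all 49 genes set 4-fold higher and all 49 set 4-fold lower were called, and 1.01% of 11840 others. The changed genes were all well above the blank spots, and the simulated noise was that of spots within arrays alone. The simulation therefore checks the computation and cannot show how dim changed genes, background or differences between sorts move the calls. Alternatives varied background, detection limit, scaling, probe, dim-gene and fold settings. Python 3.11.15, pandas 2.3.3 and R 4.3.3 with limma 3.58.1 (normexp) were used.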

Additional observations from a re-analysis of the deposited data

How the results depend on the processing

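No paired analysis was possible because each population has 1 array, and leaving out a replicate was not possible for the same reason. As reported, 1838 genes were higher and 1922 lower. With the normexp background of the scanner files' local background 383 were higher and 474 lower, of which 281 and 352 were also called as reported; that local background rose with the spot (Spearman's rho over probes 0.946 and 0.942) and reached it for 353 probes of the B220+ array. With normexp on the spot alone, an alternative chosen after seeing the data, 319 were higher and 1621 lower. In another setting, spots without a probe gave both the subtracted background and the detection limit. Then 2863 were higher, 1079 lower, 1537 detected in Venus+ and 221 in B220+ cells alone, and the median log2 ratio was 0.34. Without genes below 10 on both arrays, 112 and 43 were detected in 1 population alone. Without genes below 25 on the brighter array, 980 were higher, 34 and 16 were in 1 population alone, and the median was -0.28. At 3-fold 926 were higher and 730 lower, and at 1.5-fold 3105 and 3300. With the local background, 10 of 179 named genes called higher or lower turned their direction: Ccr6 (0.50), Fut8 (-0.30), Rasgrp2 (0.77), Rhob (-0.0417), Sec24a (-0.0043), Sec61a1 (-0.90), Slc22a4 (-0.0013), Stat2 (0.10), Tusc3 (0.0157) and Ulk2 (0.12). Under the other background, detection, scaling, probe and dim-gene settings every named gene that kept a value kept its direction. Of the 179, however, 86 stayed 2-fold with the local background and 126 with normexp on the spot alone.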

Other observations

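Some gene families outside the lists of the secretory route and the B cell were also measured. Of 224 solute carrier genes on both arrays, 45 (20.1%) were higher in the Venus+ cells and 28 (12.5%) lower (median log2 ratio 0.20). With normexp on the spot alone and with the local background, the median was -0.03 and 0.0049, with 7 and 6 higher and 15 and 4 lower. Slc39a4, a zinc importer, was detected in Venus+ cells alone at 86.3, at least 63.9-fold higher. Slc22a4, an ergothioneine carrier, had signals of 6.8 and 60.8 (3.16 ± 0.20), and Slc27a1, a fatty acid carrier, 14.5 and 127.4. Slc25a37, which brings iron into mitochondria, had 145.8 and 22.2 (-2.72 ± 0.15), beside the transferrin receptor gene Tfrc with 208.3 and 22.4 (-3.22 ± 0.15). Of 6 erythroid markers on both arrays 3 were lower and 1 higher, with Alas2 at 69.9 and 10.2 and Car2 at 57.1 and 2.0. The part of erythroid cells in the 2 iron genes was not tested. Small GTPase, myosin, kinesin and actin genes had 20 of 166 higher and 55 lower (median -0.38, or -0.30 and -0.04 under normexp, with 2 and 5 higher and 50 and 15 lower). Cnn3, an actin-binding calponin, had 1468 and 20 (-6.20 ± 0.15), Myo1f 75.3 and 3.1 (-4.60 ± 0.43), and Rhob 2.2 and 47 (4.42 ± 0.46, but -0.04 with the scanner files' local background). Of 202 genes named Zfp, 22 were higher and 35 lower (under normexp 3 and 2 higher and 17 and 4 lower). Zfp318, which controls the choice between IgM and IgD transcripts, had 112.4 and 10.5 (-3.42).

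A further 3 motifs were searched in the same promoter windows. The element TGACGTGG, whose last letters CGTGG are also part of the ERSE, stood in 22 of 1445 higher genes (1.52%), 13 of 1545 lower genes (0.841%) and 0.945% of genes on the array; among COPII and COPI genes it stood in 9 of 69 (13.0%), of which 2 were higher. The palindrome TGACGTCA stood in 2.91% of higher and 3.43% of lower genes, and TGACTCA in 5.40% and 3.69%. These are descriptions of letters in windows.

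Some of the largest ratios belong to names that rest on the platform annotation alone. Ccnk had 46.0 and 6125, Dock6 146.4 and 6421, and Olfr803, an odorant receptor gene, 6.5 and 632.2. Whether these probes read the named transcripts was not tested. The probes without a symbol had 753 of 4312 higher (17.5%) and 718 lower (16.7%), close to the shares among named genes.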
